A study of Homo sapiens with 12 samples.

Results

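Keratins are the intermediate filament proteins of epithelial cells, and 10 keratin genes of luminal, basal and hair type were followed here among 55765 genes counted: KRT8, KRT18, KRT19, KRT7, KRT80, KRT10, KRT15, KRT5, KRT81 and KRT86. They were chosen by name, with earlier results of these data known, and their raw read counts were compared across 4 groups of T47D cells. T47D is an established breast cancer line of luminal type that carries the estrogen and progesterone receptors. Every group had 3 biological replicates per the labels, so 12 libraries were read. The groups were cells given an siRNA against PRMT1 and then 10 nM R5020 for 6 h (siPRMT1 R5020), the same siRNA with the ethanol vehicle (siPRMT1 ethanol), a nonspecific control siRNA with R5020 (siCT R5020), and the control siRNA with ethanol (siCT ethanol). R5020 is a synthetic progestin and PRMT1 is a protein arginine methyltransferase. The study asked whether progestin-induced expression needs PRMT1. All groups were grown in insulin-containing medium with serum. The siRNA sequences were not given in the sources used here.

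A keratin filament is built from pairs of an acidic type I and a basic type II keratin. Of these genes, KRT10, KRT15, KRT18 and KRT19 encode type I proteins, and KRT5, KRT7, KRT8, KRT80, KRT81 and KRT86 type II proteins. In the breast, luminal cells carry KRT7, KRT8, KRT18 and KRT19, while basal and myoepithelial cells carry KRT5 with KRT14. KRT15 is found in basal cells of stratified epithelia, KRT10 in the suprabasal epidermis, and KRT81 and KRT86 in the hair cortex. In luminal breast cancer lines such as T47D, progestins are known for giving rise to a small KRT5-positive fraction of cells.

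The libraries held from 26783525 to 34120937 counts, and 17727 genes passed the filter on low counts and were tested. All 10 keratins passed it, KRT5 only through the siPRMT1 R5020 libraries and KRT81 only through siCT libraries. PRMT1 stood at 6.88 to 7.37 CPM (a gene's counts scaled to library size) in siPRMT1 R5020 cells and 37.5 to 50.7 CPM in siCT R5020 cells, and at 7.91 to 8.38 CPM in siPRMT1 ethanol cells and 29.7 to 45.3 CPM in siCT ethanol cells. In siCT R5020 replicate 1 and siCT ethanol replicate 3 the mitochondrially encoded genes took 52.35% and 59.31% of counts, against 31.32% to 38.26% in the other 10 libraries, so these 2 libraries stood apart. The luminal label was met by level and not by presence, since all 13 luminal and all 13 basal markers had counts in some library. The luminal markers summed to 4769 to 4822 CPM in siPRMT1 R5020 and 7259 to 7438 in siPRMT1 ethanol libraries. In siCT cells they summed to 5365 to 7661 CPM with R5020 and 6455 to 10030.0 with ethanol. The 13 basal markers summed to 85.5 to 93.8 CPM in siPRMT1 R5020, 80.6 to 91.9 in siPRMT1 ethanol, 174 to 251 in siCT R5020 and 155 to 321 in siCT ethanol libraries.

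Sequence bears on how KRT81 and KRT86 were counted. Both lie on chromosome 12, in the type II keratin cluster, on opposite strands, and in the GENCODE v29 annotation the whole of KRT81 lies within the span of KRT86. Their coding sequences were identical at 90.8% of aligned positions, with an unbroken identical run of 605 bases. Of the 50-base words of the KRT81 transcript, 38.4% also occur in KRT86. A read from the shared stretch cannot be given to either gene by its sequence alone.

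The luminal keratins KRT18, KRT19 and KRT8 made up nearly all counts of the 10 keratins. KRT23, which is outside the 10 and described below, averaged 198 CPM in siCT ethanol and 55.1 CPM in siPRMT1 R5020 cells. Together KRT18, KRT19 and KRT8 took 97.2% to 97.5% of the counts of the 10 genes in siPRMT1 R5020 and 97.5% to 97.6% in siPRMT1 ethanol libraries. In siCT cells they took 92.6% to 95.3% with R5020 and 92.9% to 95.5% with ethanol. Per kilobase of coding sequence, the order in siPRMT1 R5020 cells was KRT18, KRT19, KRT8, KRT80, KRT7, KRT10, KRT15, KRT86, KRT5 and KRT81. The levels at the top of that order were 4569 ± 477, 1744 ± 76.2 and 1367 ± 142 CPM per coding kilobase (SD, n = 3). In siCT ethanol cells the same 3 genes led with 2216 ± 522, 1364 ± 546 and 718 ± 227 CPM per coding kilobase. The SD of KRT19 overlapped those of KRT18 and KRT8, but each siCT ethanol library held this order. The ratio of KRT19 to KRT18 counts was 0.492 to 0.690 in these libraries. Below them in siCT ethanol cells came KRT80 at 102 ± 26.4, KRT7 at 43.5 ± 12, KRT15 at 42.3 ± 32.3 and KRT10 at 24.2 ± 11.6 CPM per coding kilobase. KRT7 lay above KRT10 in each siCT ethanol library, while the place of KRT15 differed between these libraries. KRT86 at 2.41 ± 0.46 and KRT81 at 0.306 ± 0.182 CPM per coding kilobase closed the order, and KRT5 had no count. Reads in untranslated exons count toward these levels, which can raise genes with long ones such as KRT80.

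**Figure D1:**
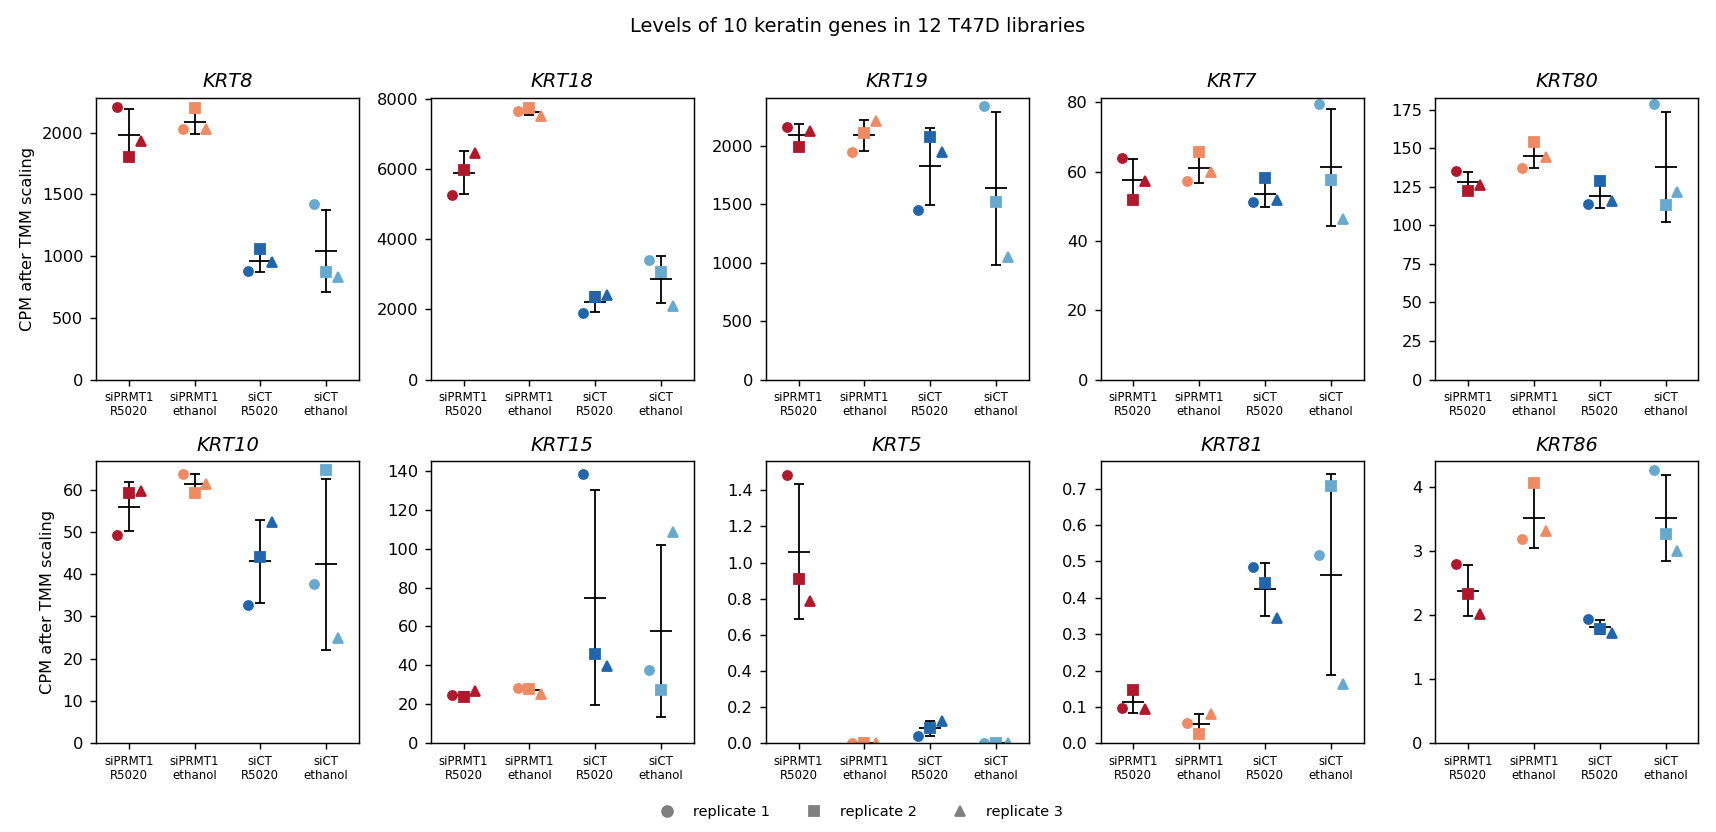
Level of each of the 10 keratin genes in every library, in CPM after TMM scaling, on linear axes that start at 0 and differ between panels. Points are libraries, long bars group means and whiskers SDs (n = 3). Every siPRMT1 library stands above every siCT library for KRT8 and KRT18, KRT5 is above 0.2 CPM only in the siPRMT1 R5020 libraries, and KRT15 is highest in siCT R5020 replicate 1 and siCT ethanol replicate 3.

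Each of 5 comparisons was tested over all genes with the quasi-likelihood test of edgeR, with p adjusted by Benjamini and Hochberg's method, and an adjusted p under 0.05 made a call. With R5020 against ethanol, 1 of the 10 keratins was called in siPRMT1 cells (KRT5, higher), against 15.4% of all genes tested (9.30% higher and 6.08% lower). In siCT cells R5020 gave 1 of 10 (KRT86, lower), against 13.0% of all genes (7.59% higher and 5.43% lower). With siPRMT1 against siCT, KRT5, KRT8 and KRT18 were higher and KRT15 and KRT81 lower in R5020, against 25.7% of all genes (11.5% higher and 14.2% lower). In ethanol KRT8 and KRT18 were higher and KRT81 lower, against 32.8% of all genes (13.6% higher and 19.2% lower). Both shares with R5020 and the share with siPRMT1 in ethanol were near the background.

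The interaction, obtained by subtracting the R5020 effect of siCT cells from that of siPRMT1 cells, was called for 0 of the 9 keratins for which it could be estimated, against 0.0790% of all genes (0.0451% higher and 0.0338% lower). It could not be estimated for KRT5, whose ethanol libraries held no count. Over all genes 720 had an unadjusted edgeR interaction p under 0.05, and among these 9 the lowest was 0.152, for KRT81. DESeq2 gave an adjusted p for 8 of them, without KRT81, and called 0. Without KRT5, the median log2 value of the other 9 keratins was -0.13 with R5020 in siPRMT1 cells, -0.19 with R5020 in siCT cells, 0.20 with siPRMT1 in R5020 and 0.07 with siPRMT1 in ethanol, against 0.00, -0.04, -0.03 and -0.07 over all genes. Comparisons that share a group of libraries are not independent of each other.

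KRT8 and KRT18, the partner keratins of simple epithelia, were higher after PRMT1 depletion, with hormone and without it. KRT18 had 5245, 5972 and 6467 CPM in siPRMT1 R5020 libraries and 1886, 2354 and 2406 CPM in siCT R5020 libraries. In ethanol it had 7645, 7729.7 and 7517 CPM with siPRMT1 and 3396, 3077 and 2103 CPM with siCT. The groups did not overlap in either medium, and the lowest siPRMT1 library lay above the highest siCT library. The difference was 2.66-fold in R5020 (1.41 ± 0.24 SE on the log2 scale, adjusted p = 0.00142) and 2.67-fold in ethanol (1.42 ± 0.24, adjusted p = 0.0011).

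KRT8 followed the same order. It had 2207, 1804 and 1933 CPM in siPRMT1 R5020 libraries against 878, 1056 and 949 CPM in siCT R5020 libraries. In ethanol it had 2029.9, 2195 and 2031 CPM with siPRMT1 against 1419, 869 and 833 CPM with siCT. No siPRMT1 library fell within the siCT range, and siCT ethanol replicate 1 was the nearest. KRT8 was 2.06-fold higher in R5020 (log2 1.04 ± 0.22 SE, adjusted p = 0.00532) and 2.00-fold higher in ethanol (1.00 ± 0.22, adjusted p = 0.00527). Both comparisons use different libraries, and each value was also called without the 2 libraries that stood apart.

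R5020 itself gave no called change of KRT8, with a log2 value of -0.07 ± 0.22 SE in siPRMT1 cells (adjusted p = 0.897) and -0.11 ± 0.22 in siCT cells (adjusted p = 0.822). KRT18 was -0.37 ± 0.23 with R5020 in siPRMT1 cells (adjusted p = 0.379) and -0.37 ± 0.23 in siCT cells (adjusted p = 0.381). All siPRMT1 R5020 libraries lay below all siPRMT1 ethanol libraries for KRT18, while the siCT groups overlapped. Once the 2 libraries that stood apart were left out, KRT18 was called lower with R5020 in both kinds of cell. Its log2 value was then -0.38 in siPRMT1 cells (adjusted p = 0.00242) and -0.45 in siCT cells (adjusted p = 0.0045). In that fit 5225 and 3569 of 17974 genes were called, against 2725 and 2308 of 17727 with all libraries. The interaction was 0.04 ± 0.31 for KRT8 and 0.00 ± 0.33 for KRT18 on the log2 scale (adjusted p = 1 for both).

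The make-up of the keratin counts differed with the siRNA. KRT18 took 53.0% to 59.9% of the counts of the 10 keratins in siPRMT1 R5020 libraries and 40.8% to 43.3% in siCT R5020 libraries. In ethanol it took 62.4% to 64.2% with siPRMT1 and 45.3% to 53.7% with siCT. KRT19, a type I keratin like KRT18, took the reverse order, with 19.7% to 21.9% in siPRMT1 R5020 against 31.9% to 36.0% in siCT R5020 libraries. Shares are parts of 1 total, so a higher KRT18 share lowers the others, and the level of KRT19 itself was not lower with siPRMT1 (log2 0.20 in R5020 and 0.35 in ethanol, neither called). KRT8 stayed between 15.2% and 22.3% in all 12 libraries. The 10 genes together took 1.52% to 1.67% of non-mitochondrial counts in siPRMT1 R5020 and 0.714% to 0.910% in siCT R5020 libraries. In ethanol the shares were 2.00% to 2.06% with siPRMT1 and 0.691% to 1.27% with siCT.

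**Figure D2:**
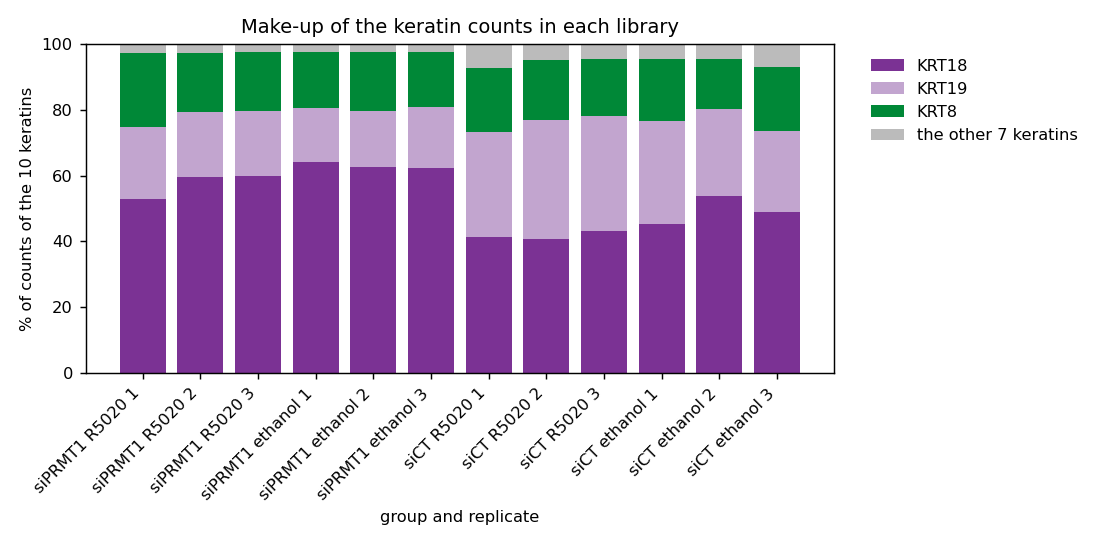
Share of the counts of the 10 keratins taken by KRT18, KRT19, KRT8 and the other 7 genes, in percent of each library, with 1 bar per library. The share of KRT18 is 53.0% or more in all siPRMT1 R5020 libraries and 43.3% or less in all siCT R5020 libraries.

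Rows named as pseudogenes of KRT8 and KRT18 are in the same tables and share sequence with their parents. There were 50 such rows for KRT8, with 5.54% of the parent's counts, and 67 for KRT18, with 6.41%. Adding them to the parent row left both genes called in both siPRMT1 comparisons. KRT8 and KRT18 are neighbours on chromosome 12 on opposite strands, and in GENCODE v29 26.9% of the KRT18 span is overlapped by KRT8. The strand setting of the counting was not given in the sources used here, so reads from the overlap cannot be told apart. The 2 transcripts shared no 50-base word.

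The genes whose pattern over the 12 libraries was most like that of KRT8, out of 10668 genes that averaged 5 CPM or more, were KRT8P3, WWOX and RBM38. KRT8P3 is a KRT8 pseudogene, WWOX an oxidoreductase and RBM38 an RNA-binding protein. Their centred log2 CPM profiles differed from that of KRT8 by a root mean square of 0.113, 0.121 and 0.131. For KRT18 they included ARRDC4, an arrestin-domain protein, and ONECUT2, a homeobox transcription factor, at 0.155 and 0.181. ONECUT2 averaged 12.02 ± 0.25 CPM in siPRMT1 R5020 and 5.36 ± 0.46 CPM in siCT R5020 cells, and 18.3 ± 1.32 CPM in siPRMT1 ethanol and 6.46 ± 1.47 CPM in siCT ethanol cells (SD, n = 3).

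KRT19, KRT7, KRT80 and KRT10 were called in none of the 5 comparisons as fitted over all 12 libraries, and some were called under other settings. KRT19, which also marks luminal cells, had 2161, 1989 and 2129 CPM in siPRMT1 R5020, 1951, 2111 and 2211 CPM in siPRMT1 ethanol, 1454, 2079 and 1945 CPM in siCT R5020, and 2344, 1515 and 1050.2 CPM in siCT ethanol libraries. The siCT ethanol libraries spanned the range of the other 9. With siPRMT1, the log2 difference of KRT19 was 0.20 ± 0.26 SE in R5020 (adjusted p = 0.611) and 0.35 ± 0.26 in ethanol (adjusted p = 0.321). In ethanol it was called higher without siCT ethanol replicate 1 (0.70, adjusted p = 0.0408). KRT7, a simple-epithelial type II keratin, had 63.9, 51.9 and 57.3 CPM in siPRMT1 R5020, 57.2, 65.7 and 60.0 CPM in siPRMT1 ethanol, 51.1, 58.1 and 51.8 CPM in siCT R5020, and 79.6, 57.6 and 46.4 CPM in siCT ethanol libraries. All groups overlapped for KRT7, and its 4 log2 values lay between -0.19 and 0.10.

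KRT80, a type II keratin of differentiating epithelia, had 135, 123 and 126 CPM in siPRMT1 R5020, 137, 154 and 144 CPM in siPRMT1 ethanol, 114, 129 and 116 CPM in siCT R5020, and 179, 113 and 122 CPM in siCT ethanol libraries. Its siPRMT1 R5020 libraries were all below its siPRMT1 ethanol libraries, with a log2 difference of -0.18 ± 0.17 SE that was not called (adjusted p = 0.6). It was called with the 6 siPRMT1 libraries fitted alone (-0.19, adjusted p = 0.0158) and by voom with quality weights (-0.19, adjusted p = 0.0404). These 2 settings called 7813 of 16759 and 8179 of 17727 genes, against 2725 of 17727 as fitted over all 12 libraries. In GENCODE v29 KRT80 lies wholly within a noncoding gene on the opposite strand. KRT10, a suprabasal epidermal keratin, had 49.2, 59.1 and 59.5 CPM in siPRMT1 R5020, 63.7, 59.1 and 61.3 CPM in siPRMT1 ethanol, 32.6, 44.1 and 52.3 CPM in siCT R5020, and 37.6, 64.5 and 24.9 CPM in siCT ethanol libraries. With siPRMT1 its log2 difference was 0.38 ± 0.27 in R5020 (adjusted p = 0.321) and 0.53 ± 0.27 in ethanol (adjusted p = 0.149). It was called higher by voom with quality weights in R5020 (0.29, adjusted p = 0.0324) and without siCT ethanol replicate 2 in ethanol (0.96, adjusted p = 0.00468). For these comparisons the 2 settings called 9866 of 17727 and 7827 of 18053 genes, against 4559 and 5806 of 17727 as fitted. The lowest KRT10 level was in siCT ethanol replicate 3 and the next in siCT R5020 replicate 1, the 2 libraries that stood apart.

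**Figure D3:**
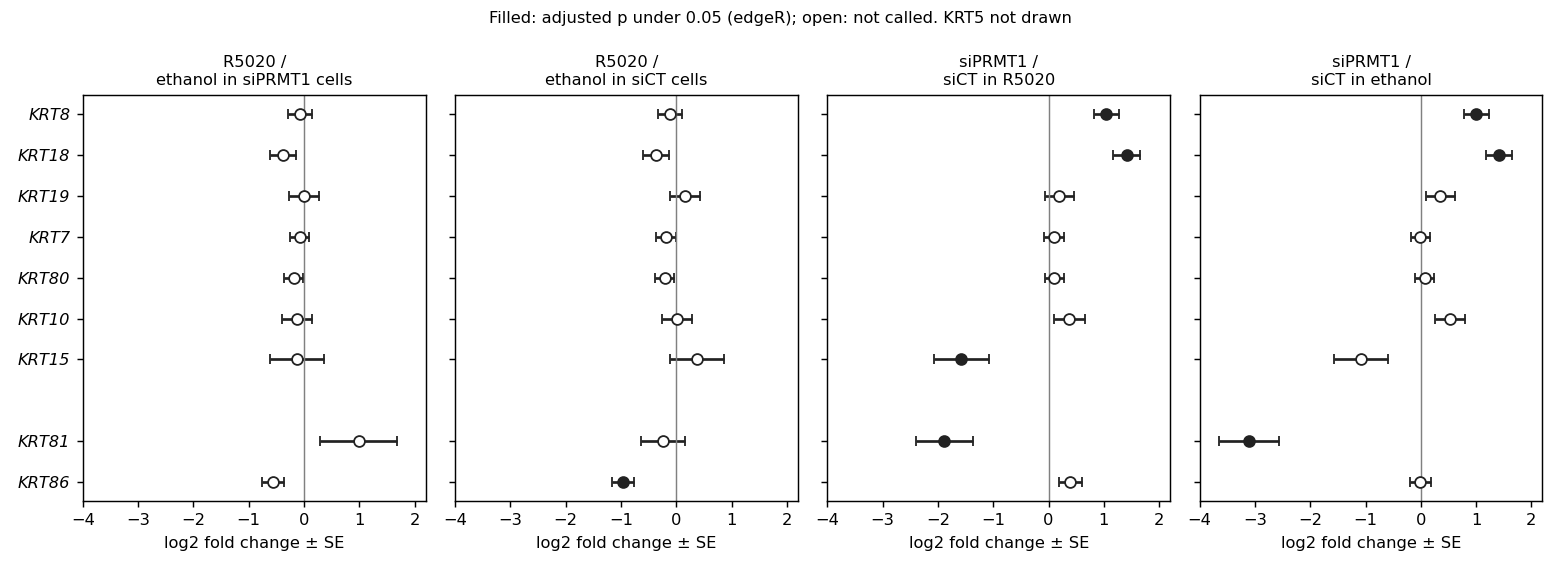
Log2 fold change of the 9 keratins other than KRT5 in 4 comparisons, as points with SE bars on a common axis. Filled points passed the edgeR test at an adjusted p under 0.05. KRT8 and KRT18 are filled on the positive side in both siPRMT1 comparisons and KRT81 on the negative side, and the KRT5 values are given in the text only, since 3 of the 4 comparisons use ethanol libraries, which hold 0 KRT5 counts.

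KRT5, the basal type II keratin, was near the limit of detection and was found only in R5020 libraries. It had 46, 25 and 25 counts in the siPRMT1 R5020 libraries and 0 in each siPRMT1 ethanol library. In siCT cells it had 1, 3 and 4 counts with R5020 and 0 in each library with ethanol. The siPRMT1 R5020 libraries thus stood above all others, and no other group exceeded 4 counts. The siPRMT1 R5020 counts equal 1.49, 0.911 and 0.787 CPM. A count of 0 allows up to 3 counts, or 0.0811 CPM on average in a siPRMT1 ethanol library and 0.111 CPM in a siCT ethanol library. Against that floor the mean siPRMT1 R5020 level of KRT5, 1.06 CPM, was 13.1-fold higher. This bounds the ethanol side only, and the 96 R5020 counts have an exact Poisson 95% interval of 77.8 to 117. KRT5 was called higher with R5020 in siPRMT1 cells by the edgeR test (adjusted p = 9.7e-05). KRT5 entered this test through the siPRMT1 R5020 libraries alone, and with no filter on low counts the adjusted p was 4.78e-12. In bulk RNA, fewer cells of a type and less RNA per cell cannot be told apart.

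In siCT cells R5020 gave 8 KRT5 counts over 3 libraries (exact Poisson 95% interval 3.45 to 15.8, counting error only) against 0 with ethanol. This difference was not called (adjusted p = 0.0577), and no fold is given because the mean level with R5020 was under the floor of 3 counts per library and that with ethanol was 0. It was called by DESeq2 (adjusted p = 0.0437) and when no filter on low counts was applied (adjusted p = 0.0353). Within R5020, KRT5 had 96 counts in siPRMT1 cells and 8 in siCT cells. That is a ratio of 12.4 after scaling for library size (exact Clopper-Pearson 95% counting interval 6.04 to 29.5), with an adjusted p of 0.00119. The 8 counts of siCT cells limit how well that ratio is known. KRT5 entered this test, too, through the siPRMT1 R5020 libraries alone, and with no filter on low counts the adjusted p was 2.75e-07. The call held in all 19 alternative settings, with adjusted p from 2.75e-07 to 0.00815. These settings refit the same libraries and are not independent support.

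**Figure D4:**
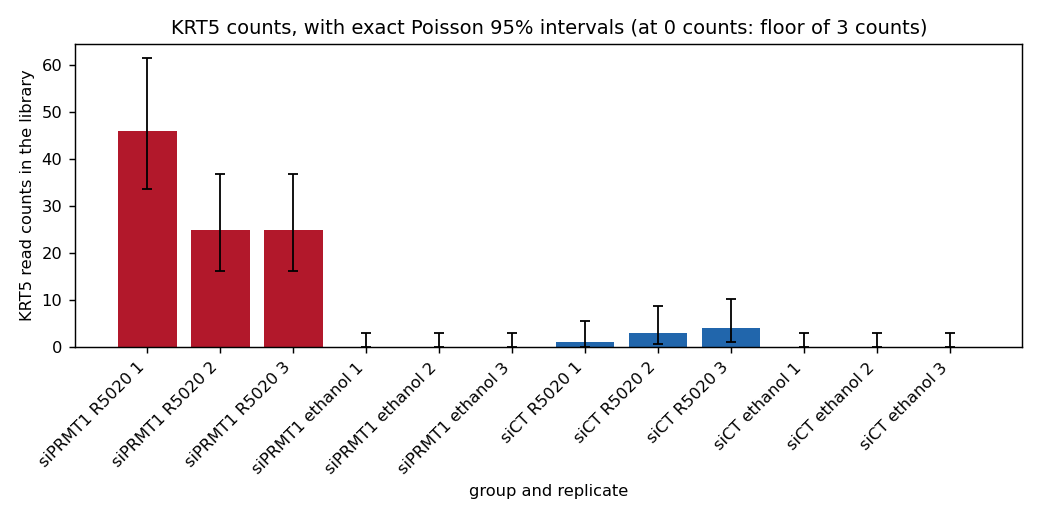
Raw KRT5 read counts in each of the 12 libraries, with exact Poisson 95% intervals that cover counting error only, or the floor of 3 counts where the count is 0. The 3 siPRMT1 R5020 libraries hold 46, 25 and 25 counts, the siCT R5020 libraries 1, 3 and 4, and all 6 ethanol libraries 0.

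Other genes of basal cells were read beside KRT5. KRT14, the type I partner of KRT5, had 13 counts in all 12 libraries and was not tested. Its counts were 3, 2 and 1 in siPRMT1 R5020, 0, 1 and 4 in siPRMT1 ethanol, 1, 0 and 1 in siCT R5020, and 0, 0 and 0 in siCT ethanol libraries. TP63, a transcription factor of basal epithelial cells, fell with R5020, at log2 values of -2.07 ± 0.33 in siPRMT1 cells (adjusted p = 0.000571) and -2.44 ± 0.31 in siCT cells (adjusted p = 0.000108). Its levels were 0.161, 0.146 and 0.220 CPM in siPRMT1 R5020 and 0.928, 0.692 and 0.653 CPM in siPRMT1 ethanol libraries. TP63 had only 5, 4 and 7 counts in siPRMT1 R5020 and 4, 9 and 7 in siCT R5020 libraries. With ethanol it had 34, 26 and 24 counts for siPRMT1 and 47, 44 and 16 for siCT. It passed the filter on low counts only through these ethanol libraries. LAMA3, a laminin chain of the basement membrane, rose with R5020 by 1.74 ± 0.31 in siPRMT1 cells (adjusted p = 0.00137) and 1.26 ± 0.30 in siCT cells (adjusted p = 0.0128). Of the 13 basal markers 7 were tested, and with R5020 1 rose and 1 fell in siPRMT1 cells, as in siCT cells, against 15.4% and 13.0% of all genes called. Their median log2 value was -0.15 in siPRMT1 cells and -0.40 in siCT cells, against 0.00 and -0.04 over all genes tested.

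The 3 genes nearest to KRT5 in pattern were C16orf80, TFCP2L1, a transcription factor, and FRK, a tyrosine kinase, at root mean square differences of 0.671, 0.7 and 0.753. These are wider than the distances found for KRT8 and KRT18. Only genes averaging 5 CPM or more were compared, while KRT5 had at most 1.49 CPM, so genes at its own level were not searched. TFCP2L1 averaged 12.8 ± 0.13 CPM in siPRMT1 R5020 and 1.45 ± 0.21 CPM in siPRMT1 ethanol cells, and 5.43 ± 0.55 CPM in siCT R5020 and 1.09 ± 0.34 CPM in siCT ethanol cells (SD, n = 3). FRK averaged 61.4 ± 5.90 CPM in siPRMT1 R5020 and 10.0 ± 1.48 CPM in siPRMT1 ethanol cells, and 28.6 ± 4.16 CPM in siCT R5020 and 5.67 ± 0.50 CPM in siCT ethanol cells. Both had counts in ethanol, where KRT5 had none.

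The KRT5 promoter is shown because KRT5 was the member called with R5020 in PRMT1-depleted cells. It is the 250 bases before the start of the gene in RefSeq on GRCh38.p14, chr12:52520395-52520644, minus strand, written 5′ to 3′, with a GC content of 56% and its only CACCC in capitals, from 147 to 143 bases before the start.
KRT5: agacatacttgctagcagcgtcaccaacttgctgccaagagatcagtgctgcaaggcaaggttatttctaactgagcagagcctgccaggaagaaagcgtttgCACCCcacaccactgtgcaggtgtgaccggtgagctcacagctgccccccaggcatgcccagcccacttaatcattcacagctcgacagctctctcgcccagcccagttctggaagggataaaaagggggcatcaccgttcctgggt

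Both strands of this window were searched for 7 motifs. No match was found to the steroid receptor element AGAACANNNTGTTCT, which 0.00285% of 35116 RefSeq promoters hold in the same window, or to the receptor half-site TGTTCT, which 12.4% hold and which is part of that element. TATAAA (10.7% of promoters), the AP-1 site TGANTCA (6.57%), the GC box GGGCGG (42.6%) and the AP-2 site GCCNNNGGC (19.8%, added after the first search) had no match either. CACCC occurs in 54.7% of promoters. A missing match says only that these letters are not in this window. Of the 10 genes, 3 had an entry in the promoter table: KRT5, KRT8 and KRT10.

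KRT15, a type I keratin of basal cells, differed with the siRNA in R5020 and was shaped by single libraries. It had 24.6, 23.6 and 26.6 CPM in siPRMT1 R5020 libraries against 139, 46.0 and 39.8 CPM in siCT R5020 libraries. In ethanol it had 28.6, 27.8 and 25.5 CPM with siPRMT1 against 37.6, 27.5 and 109 CPM with siCT. The highest values, 139 and 109 CPM, were those of siCT R5020 replicate 1 and siCT ethanol replicate 3, the 2 libraries with a high mitochondrial share. The R5020 groups did not overlap and the ethanol groups did.

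The log2 difference of KRT15 with siPRMT1 was -1.58 ± 0.50 SE in R5020 (adjusted p = 0.033) and -1.08 ± 0.49 in ethanol (adjusted p = 0.107). Without both libraries that stood apart it was -0.77 in R5020 (adjusted p = 0.000849) and -0.24 in ethanol (adjusted p = 0.148). Leaving out siCT R5020 replicate 1 alone gave -0.78 (adjusted p = 0.197), and leaving out siPRMT1 R5020 replicate 1, 2 or 3 ended the call as well, with log2 values of -1.57, -1.54 and -1.63 (adjusted p = 0.0915, 0.104 and 0.083). In ethanol KRT15 was called lower without siCT ethanol replicate 2 (log2 -1.42, adjusted p = 0.0358), without siCT R5020 replicate 1 (-1.07, adjusted p = 0.0368) and with no filter on low counts (-1.02, adjusted p = 0.00279). The summed level of the basal markers, given above, was lower in all siPRMT1 than in all siCT libraries. Of the 7 basal markers tested, 0 rose and 2 fell with siPRMT1 in R5020, ACTA2 and CDH3, and 0 rose and 4 fell in ethanol, ACTA2, CDH3, MYLK and LAMA3, while 14.2% and 19.2% of all genes were called lower. Their part in the KRT15 result was not tested. R5020 gave no called change of KRT15 (adjusted p = 0.919 in siPRMT1 and 0.717 in siCT cells).

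The hair keratins KRT81 and KRT86 were present at low counts. KRT86 had 87, 64 and 64 counts in siPRMT1 R5020 and 117, 153 and 122 counts in siPRMT1 ethanol libraries. In siCT cells it had 48, 65 and 55 counts with R5020 and 157, 111 and 55 counts with ethanol. In CPM, all R5020 libraries lay below all ethanol libraries for either siRNA, at 2.02 to 2.81 against 3.19 to 4.07 with siPRMT1 and at 1.72 to 1.94 against 3.01 to 4.28 with siCT. KRT86 fell with R5020 in siCT cells by 0.97 ± 0.20 SE on the log2 scale (adjusted p = 0.00576). This call was lost only when the 6 siCT libraries were fitted alone (-0.94, adjusted p = 0.0812).

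In siPRMT1 cells the R5020 value of KRT86 was -0.56 ± 0.20 (adjusted p = 0.0767) and missed the threshold. It passed by DESeq2 (-0.59, adjusted p = 0.0447), with the 6 siPRMT1 libraries fitted alone (-0.57, adjusted p = 0.00511) and by voom with quality weights (-0.65, adjusted p = 0.000491). It also passed without the 2 libraries that stood apart (-0.57, adjusted p = 0.0247) and without siCT ethanol replicate 1 (-0.56, adjusted p = 0.0472) or 3 (-0.60, adjusted p = 0.0338). In this order 3137 of 17727, 7813 of 16759, 8179 of 17727, 5225 of 17974, 3076 of 18030 and 3820 of 18067 genes were called. As fitted over all 12 libraries, 2725 of 17727 genes were called. The R5020 effects with the 2 siRNAs did not differ beyond their error (interaction 0.40 ± 0.28, adjusted p = 1). With siPRMT1 the log2 value of KRT86 was 0.40 ± 0.21 in R5020 (adjusted p = 0.173) and -0.01 ± 0.19 in ethanol (adjusted p = 0.984).

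KRT81 was lower with siPRMT1. It had 3, 4 and 3 counts in siPRMT1 R5020 libraries against 12, 16 and 11 counts in siCT R5020 libraries. In ethanol it had 2, 1 and 3 counts with siPRMT1 against 19, 24 and 3 counts with siCT. In CPM the groups did not overlap in either medium, although siCT ethanol replicate 3, a library that stood apart, had no more counts than the highest siPRMT1 ethanol library. The ratio of siPRMT1 to siCT counts after scaling was 0.265 in R5020 (95% counting interval 0.118 to 0.54) and 0.105 in ethanol (0.0365 to 0.245). KRT81 fell by 1.88 ± 0.51 SE on the log2 scale in R5020 (adjusted p = 0.0175) and by 3.11 ± 0.54 in ethanol (adjusted p = 0.00134). In ethanol the mean KRT81 level with siPRMT1, 0.0542 CPM, was under the floor of 3 counts per library, 0.0811 CPM. With siCT in ethanol it was 0.463 CPM. The ethanol ratio and log2 value therefore give the direction, and their size is not known. In R5020 the siPRMT1 libraries, at 3 or 4 counts, stood at or just above 3 counts, so the size there is uncertain too. KRT81 entered both tests through siCT libraries alone. With no filter on low counts the adjusted p was 0.0142 in R5020 and 5.69e-05 in ethanol.

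The call of KRT81 in R5020 was lost with library totals alone (-1.83, adjusted p = 0.0712) and without siCT R5020 replicate 2 (adjusted p = 0.0501), siPRMT1 R5020 replicate 1 (adjusted p = 0.0646) or siPRMT1 R5020 replicate 3 (adjusted p = 0.068), at log2 values of -1.85, -1.79 and -1.78. When the counts of KRT81 and KRT86 were summed, since reads of the shared stretch can go to either or neither, the sum gave 0.16 with siPRMT1 in R5020 (adjusted p = 0.594) and -0.16 in ethanol (adjusted p = 0.539). KRT86 supplied most of that sum. The ratio of KRT81 to KRT86 counts was 0.0345 to 0.0625 in siPRMT1 R5020 and 0.200 to 0.250 in siCT R5020 libraries, and 0.00654 to 0.0246 in siPRMT1 ethanol and 0.0546 to 0.216 in siCT ethanol libraries. With R5020 the summed row fell in siCT cells by 0.85 (adjusted p = 0.0128). KRT81 alone gave no called change with R5020, at 0.99 ± 0.70 in siPRMT1 cells (adjusted p = 0.446) and -0.23 ± 0.40 in siCT cells (adjusted p = 0.794).

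Beyond these 10, 44 other keratin genes were in the tables. Of them 37 had any count, 8 passed the filter and 7 had no count in any library. Of the 8 tested, R5020 raised 2 and lowered 1 in siPRMT1 cells, and raised 1 and lowered 1 in siCT cells, against 15.4% and 13.0% of all genes called. With siPRMT1, 0 rose and 1 fell in R5020 and 0 rose and 2 fell in ethanol, against 25.7% and 32.8% of all genes. The genes called were KRT23, KRT4, KRT16 and KRT83.

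KRT23, a type I keratin, was the most abundant of them and was lower with hormone and with the siRNA. It had 49.1, 58.9 and 57.5 CPM in siPRMT1 R5020, 101, 97.6 and 94.2 CPM in siPRMT1 ethanol, 83.9, 115 and 114 CPM in siCT R5020, and 233, 225 and 135 CPM in siCT ethanol libraries. No groups set against each other overlapped. It fell with R5020 by 0.82 ± 0.20 SE (log2) in siPRMT1 cells (adjusted p = 0.0133) and by 0.92 ± 0.20 in siCT cells (adjusted p = 0.0075), and with siPRMT1 by 0.92 ± 0.20 in R5020 (adjusted p = 0.0064) and by 1.02 ± 0.20 in ethanol (adjusted p = 0.00294).

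KRT4, a type II keratin of mucosal epithelia, had 77, 81 and 69 counts in siPRMT1 R5020 against 45, 47 and 36 counts in siPRMT1 ethanol libraries, and 82, 122 and 121 counts in siCT R5020 against 42, 27 and 16 counts in siCT ethanol libraries. It rose with R5020 by 1.13 ± 0.21 SE (log2) in siPRMT1 cells (adjusted p = 0.00182) and by 1.88 ± 0.21 in siCT cells (adjusted p = 4.55e-05), and the interaction was not called (-0.74 ± 0.30, adjusted p = 1). KRT16, a stress-inducible epidermal keratin, had 79, 48 and 58 counts in siPRMT1 R5020 against 17, 19 and 29 counts in siPRMT1 ethanol libraries, and rose by 1.80 ± 0.31 (adjusted p = 0.00116). In siCT cells it had 40, 60 and 34 counts with R5020 against 28, 16 and 18 counts with ethanol, a difference of 1.01 ± 0.32 that was not called (adjusted p = 0.0567). KRT83, a hair keratin close in sequence to KRT81 and KRT86, had 5, 11 and 4 counts in siPRMT1 ethanol against 28, 19 and 7 counts in siCT ethanol libraries, and fell by 1.69 ± 0.43 (adjusted p = 0.0107).

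**Figure D5:**
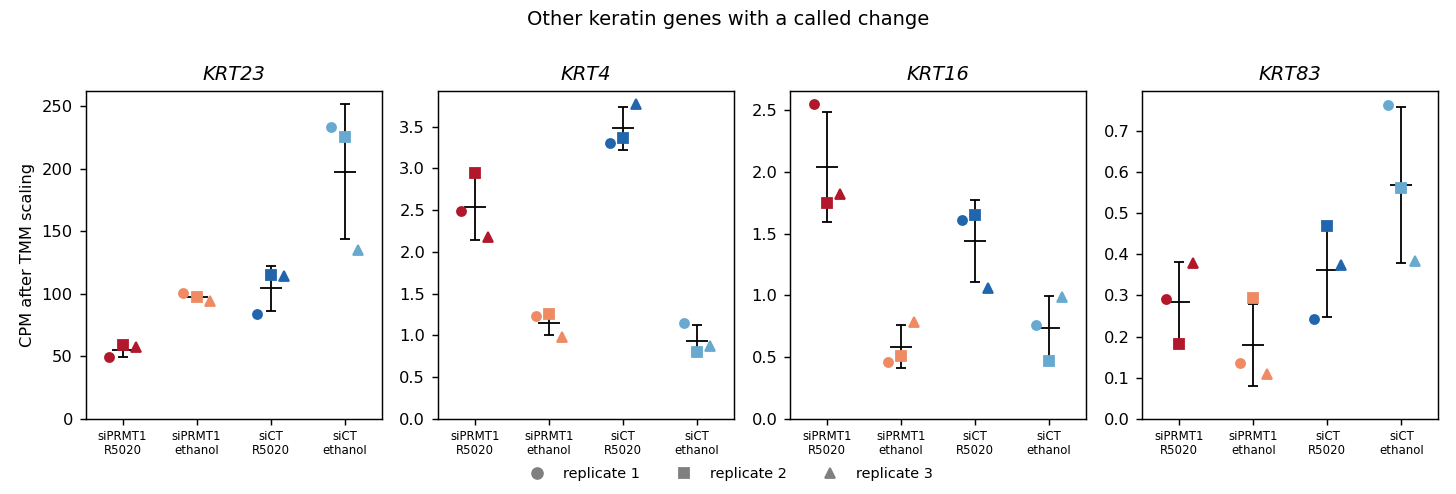
Levels of the 4 other keratin genes with a called change, in CPM after TMM scaling on linear axes that start at 0. Points are libraries, long bars group means and whiskers SDs (n = 3). KRT23 is lowest in siPRMT1 R5020 libraries, and KRT4 stands higher with R5020 than with ethanol for either siRNA.

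Proteins that tie keratin filaments to junctions or to each other were also read. Of 9 such genes, all tested, 1 was higher and 1 lower with R5020 in siPRMT1 cells, 2 were higher and 1 lower with R5020 in siCT cells, and none was called with siPRMT1. The shares of all genes called were those given for the other keratins. PPL encodes periplakin, which links keratins to the cell cortex, and had 47.4, 43.6 and 44.7 CPM in siPRMT1 R5020 against 13.8, 15.5 and 14.8 CPM in siPRMT1 ethanol libraries. It rose with R5020 by 1.62 ± 0.30 SE (log2) in siPRMT1 cells (adjusted p = 0.00179) and by 1.80 ± 0.30 in siCT cells (adjusted p = 0.000961). DST encodes dystonin, whose epithelial form anchors keratins at hemidesmosomes, and had 26.4, 26.0 and 26.2 CPM in siPRMT1 R5020 against 87.0, 91.7 and 96.7 CPM in siPRMT1 ethanol libraries. It fell with R5020 by 1.81 ± 0.24 in siPRMT1 cells (adjusted p = 0.000143) and by 1.52 ± 0.24 in siCT cells (adjusted p = 0.000638). SFN, the 14-3-3 sigma protein, rose with R5020 in siCT cells (0.87 ± 0.24, adjusted p = 0.0268).

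Of 15 other intermediate filament genes, 9 were tested. With R5020 1 rose and 1 fell for either siRNA, against 15.4% of all genes called in siPRMT1 and 13.0% in siCT cells. With siPRMT1 1 rose and 1 fell in R5020 and 1 rose and 2 fell in ethanol, against 25.7% and 32.8%. These counts were near the background. SYNM, which encodes synemin, had 53, 57 and 53 counts in siPRMT1 R5020, 24, 27 and 23 counts in siPRMT1 ethanol, 22, 22 and 16 counts in siCT R5020, and 6, 5 and 4 counts in siCT ethanol libraries. It was the gene that rose in all 4 comparisons, by log2 values of 1.44 to 1.95 (adjusted p from 0.000968 to 0.00143). BFSP1, a beaded filament protein known from the lens, fell in all 4, by 0.57 to 0.75 (adjusted p from 0.00703 to 0.0262). LMNB2, a nuclear lamin, fell with siPRMT1 in ethanol (-0.61 ± 0.19, adjusted p = 0.0268).

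All 13 luminal identity genes were tested. With siPRMT1 2 rose and 4 fell in R5020, against 11.5% and 14.2% of all genes, and 2 rose and 2 fell in ethanol, against 13.6% and 19.2%. ESR1 and PGR rose in both media, TFF3 and MUC1 fell in both, and GATA3 and FOXA1 fell in R5020. ESR1, the estrogen receptor, rose with siPRMT1 by 0.52 ± 0.13 SE (log2) in R5020 (adjusted p = 0.00983) and 1.17 ± 0.13 in ethanol (adjusted p = 5.81e-05), and PGR, the progesterone receptor, by 0.70 ± 0.20 (adjusted p = 0.0212) and 1.13 ± 0.20 (adjusted p = 0.00147). TFF3, a trefoil factor secreted by luminal cells, fell by 1.08 ± 0.22 in R5020 (adjusted p = 0.00452) and by 1.31 ± 0.23 in ethanol (adjusted p = 0.00126). With R5020, 0 of the 13 rose and 5 fell in siPRMT1 cells (ESR1, PGR, GATA3, FOXA1 and ELF3), and 0 rose and 4 fell in siCT cells (ESR1, PGR, FOXA1 and TFF1), while 6.08% and 5.43% of all genes were called lower. PGR had 277, 282 and 265 CPM in siPRMT1 R5020 against 1106, 1133 and 1146 CPM in siPRMT1 ethanol libraries, and FOXA1, a pioneer factor, fell by 1.94 ± 0.19 in siPRMT1 cells (adjusted p = 8.35e-06).

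Of 14 genes of the squamous programme that accompanies KRT10 in the epidermis, 9 were tested and FLG and CALML3 had no count. With siPRMT1, CASP14, IVL and SPRR1A rose and TGM1 fell in R5020, against 25.7% of all genes called. In ethanol CASP14 rose and KLK5 fell, against 32.8%. With R5020, TGM1 fell in siPRMT1 cells and IVL in siCT cells, against 15.4% and 13.0% of all genes called. CASP14, a caspase of cornifying cells, averaged 11.0 ± 1.73 CPM in siPRMT1 R5020 and 0.878 ± 0.28 CPM in siCT R5020 cells, and 11.8 ± 0.31 CPM in siPRMT1 ethanol and 1.43 ± 0.09 CPM in siCT ethanol cells (SD, n = 3). It rose by 3.61 ± 0.22 in R5020 (adjusted p = 2.19e-06) and 3.04 ± 0.21 in ethanol (adjusted p = 2.93e-06). IVL, which encodes involucrin, rose with siPRMT1 in R5020 (0.61 ± 0.17, adjusted p = 0.0213). Of the 11 stroma and leukocyte markers counted only LUM and COL1A1 were tested. LUM fell with siPRMT1 in R5020 (-1.37 ± 0.43, adjusted p = 0.0334) and in ethanol (-1.60 ± 0.39, adjusted p = 0.00818). Of all genes, 14.2% and 19.2% were called lower there.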

How the data were processed

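RNA-seq read counts per gene were used for 12 T47D libraries, 3 biological replicates in each of 4 groups, assigned from the siRNA and treatment labels. TRIzol and the Lexogen SENSE mRNA kit served for extraction and library preparation, per the labels' protocols. The authors deposited raw counts for 55765 gene symbols. The submitters' processing notes name DESeq2, HTSeq 0.9.1, Bowtie2 2.3.2.2 and the build hg19, with no roles. The annotation, the strand setting and the counting of reads shared by several genes were not given in the sources used here. Unspliced alignment or the dropping of shared reads would lower genes such as KRT81 in all libraries.

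Counts were tested with edgeR 4.0.16 (limma 3.58.1, R 4.3.3): filterByExpr left 17727 genes, library sizes were scaled by TMM, the fit gave each group its own mean over all 12 libraries, and each of 5 comparisons was tested by quasi-likelihood with Benjamini-Hochberg adjustment over all genes tested, called at an adjusted p under 0.05. The procedure was tested on simulated data. Levels are CPM after TMM scaling, with mitochondrial counts included, and log2 profiles use a prior count of 2. Counting intervals and the floor of 3 counts per library cover counting error only. The spread behind each p-value is that between these libraries. The alternatives were DESeq2 1.42.0, library totals alone, no filter, a replicate block, only the groups compared, voom with quality weights, summed rows for KRT81 with KRT86 and for pseudogenes with their parents, and libraries left out. No 2 libraries agreed within sampling noise. The authors' own comparison table was not used here.

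The keratins, the other gene lists and the tests were chosen with earlier results of these data known. All 10 keratins are named, with other keratins called in any comparison, up to 4 genes of each other list with the smallest adjusted p, PRMT1 and PGR, and the 3 genes nearest in pattern to KRT5, KRT8 and KRT18. KRT14, MYLK, GATA3, ELF3, TFF1, MUC1 and KLK5 were named outside this rule, after their values were seen. A gene that the rule names is not reported here. Sequences and gene relations come from GENCODE v29 and RefSeq on GRCh38, not on the build of the counts, so no coordinate was carried over to the counts.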

Additional observations from a re-analysis of the deposited data

How the results depend on the processing

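KRT5, KRT8 and KRT18 kept every call reported with siPRMT1 or, for KRT5, with R5020 in siPRMT1 cells, in all alternatives that gave a value. All alternatives refit the same libraries or part of them. The number of the 10 keratins called with R5020 in siPRMT1 cells was 1, where 2725 of 17727 genes were called. It became 2 with DESeq2 (3137 of 17727 genes), 4 with only the groups compared (7813 of 16759) and 4 with voom (8179 of 17727). Without both libraries that stood apart it was 3 (5225 of 17974). With R5020 in siCT cells the number was 1 (2308 of 17727 genes). It became 2 with DESeq2 (2797 of 17727), 2 with no filter (2498 of 31247) and 0 with only the groups compared (898 of 16975). Without both libraries that stood apart it was 2 (3569 of 17974). Leaving out 1 library gave 1 to 2 with R5020 in siPRMT1 cells. With siPRMT1 it gave 3 to 5 in R5020 and 3 to 5 in ethanol. Over all genes, in the same order, 1831 to 3820, 2332 to 6768 and 3487 to 7827 were called, of 18030 to 18147 tested. The cause was not tested. Scaling by library totals alone shifted the median of all genes by -0.17 with R5020 in siPRMT1 cells, 0.18 with siPRMT1 in ethanol and -0.14 for the interaction (log2).

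The replicate numbers showed no clear pairing of the samples: 3 of 18 same-numbered pairs of libraries had a correlation over 0.1 (range -0.67 to 0.29). Of 12 libraries, 2 correlated best with their own number. The 2 libraries that stood apart carry different numbers, so this check cannot exclude pairing. With the replicate block 1, 1, 4, 3 and 0 of the 10 keratins were called with R5020 in siPRMT1 cells, with R5020 in siCT cells, with siPRMT1 in R5020, with siPRMT1 in ethanol and for the interaction, which has no estimate for KRT5. Over all genes, in the same order, 2278, 1890, 3845, 4936 and 0 of 17727 were called. KRT15 with siPRMT1 in R5020 was the call the block ended (adjusted p = 0.0514).

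Of the values whose direction changed, 1 had been called: KRT81 with siPRMT1 in R5020, at 0.16 when summed with KRT86. The summed row also turned KRT81 with R5020 in siPRMT1 cells to -0.52. KRT19 with R5020 in siPRMT1 cells became -0.023 with DESeq2, -0.17 with library totals, -0.0019 with the block, -0.0083 with only the groups compared and -0.0048 without both libraries that stood apart. KRT10 with R5020 in siCT cells became -0.058 with library totals and -0.092 without both libraries. With siPRMT1 in ethanol, KRT7 became 0.023 with DESeq2, 0.12 with library totals, 0.027 with no filter, 0.015 with the block and 0.011 with only the groups compared, and KRT86 became 0.019, 0.15, 0.028, 0.014 and 0.012. The interaction became -0.077 for KRT8 and -0.10 for KRT80 with library totals, and for KRT18 0.071 without both libraries, 0.039 with voom and 0.0079 with pseudogene rows added. Leaving out 1 library gave these ranges. With R5020 in siCT cells they were -0.22 to 0.46 for KRT10, -0.42 to 1.24 for KRT15, -0.051 to 0.52 for KRT19, -0.32 to 0.052 for KRT7, -0.33 to 0.030 for KRT80, -0.51 to 0.15 for KRT81 and -0.23 to 0.18 for KRT8. With R5020 in siPRMT1 cells they were -0.040 to 0.049 for KRT19 and -0.16 to 0.00056 for KRT7. With siPRMT1 in ethanol they were -0.11 to 0.23 for KRT7, -0.056 to 0.30 for KRT80 and -0.12 to 0.16 for KRT86. For the interaction they were -0.59 to 0.050 for KRT10, -1.40 to 0.29 for KRT15, -0.15 to 0.11 for KRT18, -0.51 to 0.016 for KRT19, -0.13 to 0.21 for KRT7, -0.21 to 0.15 for KRT80 and -0.25 to 0.16 for KRT8. The interaction has no value with only the groups compared. At these depths KRT5 and KRT81 rest on single-digit to low double-digit counts in most libraries.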
